A study of Mus musculus with 2 samples.

Results

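Natural killer (NK) cells read the surface of other cells through lectin-like receptors, and 10 genes of that kind were described here: the Ly49 genes Klra4, Klra7, Klra8 and Klra9, and Klrb1c, Klrc1, Klrd1, Klrk1, Klre1 and Klrg1. They were taken by symbol from the 14654 genes of the deposited table of raw counts, and all 10 were in it. The choice of members was made with earlier results of these data known. The cells came from tumors of YUMMER1.7, a BRAF-mutant and immunogenic mouse melanoma line, grown for 11 days in male C57BL/6 mice of 8 weeks of age of wild-type (WT) or Siah2 -/- genotype, the latter without the ubiquitin ligase Siah2 in the germline. Sorted CD45+ leukocytes of the tumors of a genotype were pooled with a smaller part of sorted CD45- cells, and each pool gave 1 droplet library, so that 4512 WT cells and 5563 Siah2 -/- cells were analysed. With 1 library per genotype there was no replicate and no test between genotypes, and genotype, tumor pool, library and sequencing lane cannot be told apart.

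Lectin-like receptors of NK cells include activating and inhibitory members. Klra7 (Ly49G2) and Klra9 (Ly49I) are inhibitory receptors for class I MHC molecules, while Klra4 (Ly49D) and Klra8 (Ly49H) have no inhibitory motif and signal through the adaptor Tyrobp (DAP12), and a given NK cell turns on only some of the Ly49 genes. Klrc1 (NKG2A) pairs with Klrd1 (CD94) as an inhibitory receptor for Qa-1, Klrk1 (NKG2D) is an activating receptor for stress-induced ligands and signals through Hcst and Tyrobp, Klrb1c is the NK1.1 antigen, Klre1 pairs with Klri1 or Klri2, and Klrg1 is an inhibitory receptor for cadherins. Activated CD8 T cells also use several of these receptors, and Klrg1 also marks a set of regulatory T cells.

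All 10 genes lie on chromosome 6 (GRCm38 build, GENCODE annotation). Klrb1c, Klre1, Klrd1, Klrk1, Klrc1 and the 4 Ly49 genes fall between 128778485 and 130233322, and Klrg1 lies apart at chr6:122270596-122282882. Among the members, Klrb1c alone overlapped another annotated gene, Gm44511, which is on the same strand. The 4 Ly49 genes are close copies with related control regions, and their promoters are shown for that reason. Whether shared letters bear on which cells carry the genes was not tested. The windows are RefSeq sequences of GRCm38.p6, read 5′ to 3′ on the minus strand from 250 bases before the annotated start to 50 bases after it. Capitals mark every run of 8 or more letters that was present in all 4 windows.
Klra4, chr6:130067222-130067521: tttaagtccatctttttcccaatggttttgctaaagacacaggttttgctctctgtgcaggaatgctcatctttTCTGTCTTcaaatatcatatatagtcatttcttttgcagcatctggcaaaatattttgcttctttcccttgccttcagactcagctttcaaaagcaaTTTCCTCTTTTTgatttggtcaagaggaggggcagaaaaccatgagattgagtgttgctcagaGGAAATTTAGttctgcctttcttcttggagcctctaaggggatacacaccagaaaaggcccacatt
Klra7, chr6:130233273-130233572: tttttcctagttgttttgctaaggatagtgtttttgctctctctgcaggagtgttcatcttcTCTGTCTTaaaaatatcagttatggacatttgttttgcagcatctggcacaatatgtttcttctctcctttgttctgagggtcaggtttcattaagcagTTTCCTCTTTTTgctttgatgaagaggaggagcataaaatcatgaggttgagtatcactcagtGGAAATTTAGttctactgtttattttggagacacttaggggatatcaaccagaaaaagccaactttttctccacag
Klra8, chr6:130129849-130130148: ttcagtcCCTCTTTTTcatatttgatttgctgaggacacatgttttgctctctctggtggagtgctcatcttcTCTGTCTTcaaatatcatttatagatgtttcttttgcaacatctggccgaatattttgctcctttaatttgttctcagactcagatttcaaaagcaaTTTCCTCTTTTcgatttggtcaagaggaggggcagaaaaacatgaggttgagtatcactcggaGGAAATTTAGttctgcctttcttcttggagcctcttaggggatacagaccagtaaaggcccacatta
Klra9, chr6:130193063-130193362: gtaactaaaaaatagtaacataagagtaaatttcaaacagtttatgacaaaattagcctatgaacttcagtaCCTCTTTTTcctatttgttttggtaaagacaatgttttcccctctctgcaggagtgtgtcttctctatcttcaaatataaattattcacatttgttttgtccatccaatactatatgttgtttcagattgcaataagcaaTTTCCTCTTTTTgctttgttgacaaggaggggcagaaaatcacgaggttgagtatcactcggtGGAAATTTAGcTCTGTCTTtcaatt
The longest run shared by the 4 windows was TTTCCTCTTTT, of 11 letters. It was found on either strand in 49 of 32817 promoter windows of the same length (0.149%). Among these were windows of the Ly49 genes Klra2, Klra3, Klra6 and Klra17, which are not members. Of these, Klra2 and Klra17 were counted mainly in myeloid cells. Such a match describes letters only. Entries were at hand for 8 of the 10 members, with none for Klrd1 and Klrg1.

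Counting by 3′ tags can mix near-identical genes. Windows of 100 bases from the last 500 bases of each transcript were looked up in all other transcripts. For Klra4, Klra8, Klrd1, Klrk1, Klre1 and Klrg1, 0 windows were found in another gene. The share was 3.66% for Klra7 (in Klra13-ps), 7.95% for Klra9 (in Klra11-ps and Klra8), 10.5% for Klrb1c (in Gm44511 and Klrb1a) and 17.1% for Klrc1 (in Klrc2), so that counts of the latter members may lack or hold reads of those copies.

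The data are counts of unique molecular identifiers (UMIs), each standing for 1 captured transcript. Levels are in CPM, the UMIs of a gene in every 1000000 UMIs of a gate or library. Libraries held 64781513 WT and 59080246 Siah2 -/- UMIs in the cells analysed, with a median of 11434.5 and 8699 per cell and a lowest cell of 6670 and 4896. There were 34 cell barcodes that the libraries shared. Siah2 itself was counted at 10.2 CPM in WT and 8.55 in the Siah2 -/- labelled library (log2 ratio −0.25, 95% interval −0.42 to −0.08). The sources used here do not say whether the counted 3′ end lies in the deleted part, so this neither checks nor goes against the label. The mixing ratio of CD45+ to CD45- cells is given as 5 to 1 in one place of the records and differently in another.

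Cells were gated by markers that are not members. NK cells had a UMI of Ncr1 (NKp46), few CD3 UMIs and few myeloid UMIs, and numbered 406 in WT and 596 in the Siah2 -/- labelled library. CD8 T cells numbered 461 and 877, other T cells 129 and 565, and myeloid cells 2088 and 2352. Barcodes with markers of several lineages (642 and 972) and those that met no gate (786 and 201) stayed out of the comparisons. All 8 genes of a separate list of NK markers, among them Eomes, Prf1 and Gzma, were seen in at least 25% of the cells of the NK gate in both libraries. In the CD8 T gate 7 of the 8 were too, so this share hardly separated these gates. Their summed level in the NK gate was 11615 and 15705 CPM against 2313 and 2584 in CD8 T cells. In myeloid cells the sum was 8304 and 9181 CPM, of which Fcer1g made up 5396 and 5845 and Tyrobp 2875 and 3206, both adaptor genes that myeloid cells also express. Of the melanoma list, Pmel, Mlana and Dct summed to at most 2.08 CPM in any gate. Of 8 myeloid genes 6 were seen in at least 25% of NK-gate cells, with a sum of 1227 and 1457 CPM there against 48850 and 41602 in myeloid cells. Lyz2 was at 124 and 221 CPM in the NK gate and H2-Aa at 100.2 and 156, both higher in the Siah2 -/- labelled library, as most members were, and their part in the members' ratios was not tested.

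One feature of the NK gate differed between the libraries and touches each comparison below. UMIs of Hmga2, a chromatin gene found in many barcodes that met no gate, were present in 44 WT cells of the gate and 20 Siah2 -/- cells. Those cells held 22.7% of the WT UMIs of the gate against 7.69% of the Siah2 -/- UMIs. Summed fibroblast collagen and decorin genes were likewise at 522 and 258 CPM of the gate. Ratios between the libraries in NK cells are therefore also given without the cells that had an Hmga2 UMI for the members and for the counts of each list, a choice made after the data were seen. Levels, ratios of NK to CD8 T cells, splits by a marker and single list genes are over all cells of the gate unless said otherwise, and the part of those cells in the remaining differences was not tested.

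Levels in CPM are given with exact Poisson 95% intervals, which cover counting error only, not the spread between animals. As each transcript gives 1 tag, levels were not scaled by length. In NK cells Klrd1 was the most abundant member, at 1179 CPM (1149 to 1210) in WT and 1505 (1473 to 1537) in the Siah2 -/- labelled library. Klrk1 followed at 643 and 919 CPM. In WT cells Klre1, at 503 (483 to 524), and Klra7, at 496 (476 to 516), had overlapping intervals and could not be ordered. In the Siah2 -/- labelled library Klra7 was above Klre1, at 684 (662 to 706) against 621 (600 to 642).

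Below these stood Klrb1c at 333 and 481 CPM, Klra8 at 271 and 436, Klra4 at 243 and 420.0, Klrc1 at 197 and 355, and Klra9 at 135 and 213. Klra8 and Klra4 were neighbours with overlapping intervals in both libraries. Klrg1 was the least abundant, at 61.1 and 42.1 CPM. The members thus spanned a wide range within one gate, with CD94 at the top and the inhibitory receptor Klrg1 at the bottom in both libraries.

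**Figure D1:**
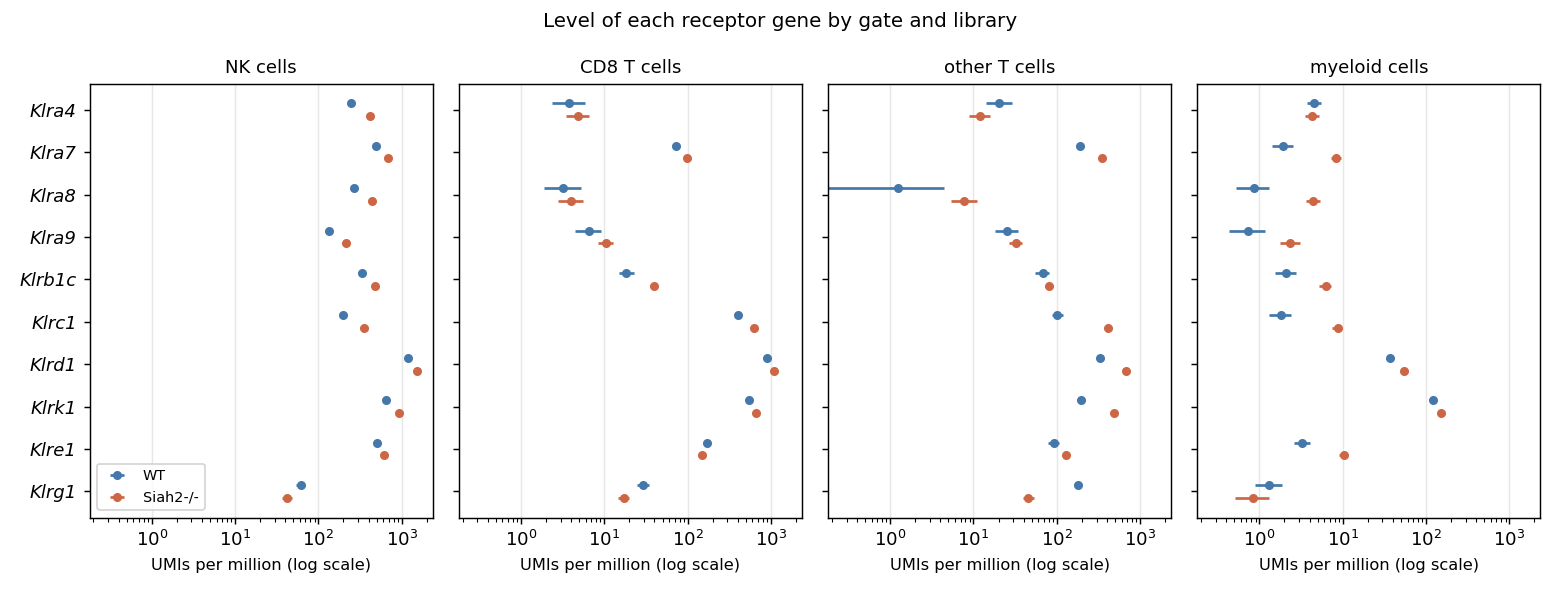
Level of each of the 10 members in the 4 gates, in CPM of the gate on a log axis, with 1 point per library (WT and Siah2 -/-) and bars for the exact Poisson 95% intervals. Klra4 and Klra8 stood at 243 and 271 in WT NK cells and at 3.81 and 3.24 in WT CD8 T cells, while Klrc1 stood at 197 and 400.

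The Ly49 members separated NK cells from CD8 T cells by very different amounts. Klra8 was at 3.24 CPM in WT CD8 T cells and 4.04 in those of the Siah2 -/- labelled library, a log2 ratio of NK to CD8 T cells of 6.38 and 6.76. Klra4 was at 3.81 and 4.84 CPM, with ratios of 5.99 and 6.44. Looser gates gave 4.48 and 4.99 for Klra8 and 3.55 and 4.47 for Klra4. After each cell was thinned to 4000 UMIs, 0.65% and 1.14% of CD8 T cells had a Klra4 UMI, against 1.20% and 1.32% of myeloid cells, so Klra4 in CD8 T cells did not stand above that background and its ratios rest on that level. Klra8 gave 0.65% and 0.91% of CD8 T cells against 0.38% and 1.62% of myeloid cells. Median depths before thinning were 9547 and 8184 UMIs in CD8 T cells and 10108.5 and 8822.5 in myeloid cells.

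Klra7, the inhibitory Ly49G2, was different. It was at 71.8 CPM (377 UMIs) in WT CD8 T cells and 98.4 CPM (853 UMIs) in the Siah2 -/- labelled library, with an NK to CD8 T log2 ratio of 2.79 and 2.80. Thinned, 8.46% and 10.9% of CD8 T cells carried it, against 0.57% and 2.93% of myeloid cells. Klra9 lay between, at 6.48 and 10.4 CPM in CD8 T cells.

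Of the other members, Klrc1 was the only one whose level was lower in NK than in CD8 T cells in both libraries. It stood at 400 CPM in WT CD8 T cells and 627 in the Siah2 -/- labelled library, a log2 ratio of NK to CD8 T cells of −1.03 and −0.82. Its partner Klrd1 was at 886 and 1092 CPM in CD8 T cells, and Klrk1 at 541 and 669, both near their NK levels (log2 ratios of 0.41 and 0.46 for Klrd1, 0.25 and 0.46 for Klrk1). Klrb1c was at 18.5 and 39.0 CPM, Klre1 at 169 and 149, and Klrg1 at 29.3 and 17.1. CD94 and NKG2D were thus nearly as abundant in CD8 T as in NK cells, and NKG2A more so.

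Between the libraries, 9 of the 10 members were higher in the NK cells of the Siah2 -/- labelled library and Klrg1 was lower, with intervals that left out 0 for all 10. Over all genes 45.8% had a ratio above 0, and 14.8% had an interval above 0 and 19.3% one below it. Their median log2 ratio was 0.52, and that of all 10575 genes with at least 20 UMIs was −0.04. Without the cells that had an Hmga2 UMI the directions were the same and all 10 intervals again left out 0, where 56.6% of all genes had a ratio above 0, and 14.8% an interval above 0 and 9.52% one below. The members' median was 0.31 and that of all genes was 0.05. At a log2 ratio of at least 1 in size, 0 members passed, where 11.0% of all genes did (3.91% higher and 7.04% lower). Again 0 members passed without the Hmga2 cells, where 5.98% of genes did (4.40% higher and 1.58% lower). At 0.5 or more on the higher side, a limit chosen after the values were seen, 6 members passed, where 8.95% of genes with at least 200 UMIs did. Without the Hmga2 cells only Klra4 and Klrc1 did, where 7.86% of genes did.

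Klrc1 had the highest ratio of the members. It was at 197 CPM in WT (945 UMIs) and 355 CPM in the Siah2 -/- labelled library (1973 UMIs), a log2 ratio of 0.85 (0.74 to 0.97). Its ratio was 0.63 (0.52 to 0.75) without the Hmga2 cells. Klra4 came next, with 1168 and 2335 UMIs and a log2 ratio of 0.79 (0.69 to 0.89), or 0.65 (0.54 to 0.75) without the Hmga2 cells. Over all barcodes with at least 1000 UMIs Klra4 had 0.32 and Klrc1 0.68. The main intervals overlapped, so the order of the pair is not settled by the counts.

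The other Ly49 members followed. Klra8 had a log2 ratio of 0.69 (0.59 to 0.79), and 0.48 (0.38 to 0.58) without the Hmga2 cells. Klra9 had 0.66 (0.52 to 0.80), then 0.45 (0.31 to 0.60). Klra7 had 0.46 (0.39 to 0.54), then 0.23 (0.15 to 0.30). Summed, the activating Klra4 and Klra8 were at 513 and 856 CPM (log2 ratio 0.74, 0.67 to 0.81) and the inhibitory Klra7 and Klra9 at 631 and 897 CPM (0.51, 0.44 to 0.57). Without the Hmga2 cells these were 0.56 (0.49 to 0.63) and 0.28 (0.21 to 0.34). The intervals of the activating and the inhibitory sum did not overlap in either form, and the difference between them was not tested. Neither sum was taken under the other alternatives of processing. Over all barcodes with at least 1000 UMIs Klra4 had 0.32, below the 0.38 of all Ly49 members summed.

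Among members that most NK cells carry, Klrb1c had a log2 ratio of 0.53 (0.44 to 0.62), Klrk1 0.52 (0.45 to 0.58), Klrd1 0.35 (0.30 to 0.40) and Klre1 0.30 (0.23 to 0.38). Without the Hmga2 cells these were 0.31, 0.30, 0.14 and 0.08, the last with an interval of 0.00 to 0.16. Klrg1 was lower in the Siah2 -/- labelled library, with 294 UMIs in WT and 234 there (log2 ratio −0.54, −0.79 to −0.29), and −0.75 (−1.01 to −0.50) without the Hmga2 cells. Over all barcodes with at least 1000 UMIs it was −0.17. For the Ly49 sum the log2 ratio was 0.62 (0.57 to 0.66) and for the other 6 members 0.43 (0.40 to 0.46), and these became 0.41 (0.36 to 0.46) and 0.21 (0.18 to 0.24).

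**Figure D2:**
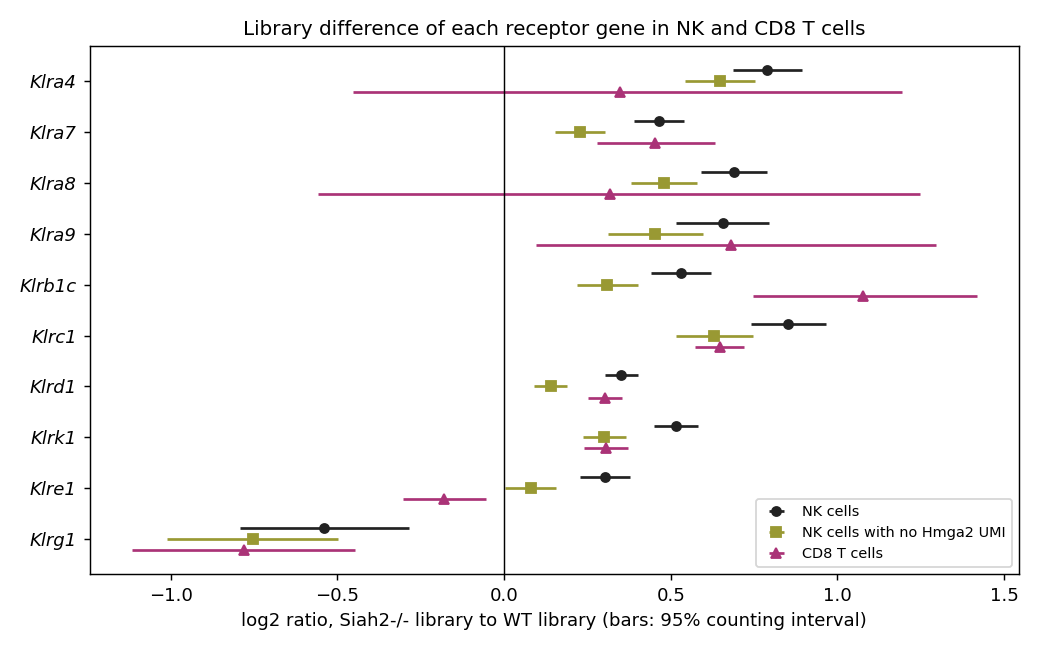
Log2 ratio of the Siah2 -/- labelled library to WT for each member, with 95% intervals of counting error and a line at 0. Points are for NK cells, NK cells with no Hmga2 UMI and CD8 T cells. In NK cells 9 members sat above 0 and Klrg1 below it, and in CD8 T cells Klrg1 and Klre1 sat below it.

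A higher level can mean more cells with a gene or more UMIs in each. Thinned to 4000 UMIs per cell, 34.2% of WT NK cells and 37.9% of those in the Siah2 -/- labelled library had a Klra4 UMI, and their intervals overlapped (29.6 to 39.1 and 34.0 to 42.0). The cells with Klra4 held a mean of 3.09 UMIs in WT and 5.07 in the other library. Leaving out the Hmga2 cells, the shares were 35.1% and 38.4% and the means 3.22 and 5.14. Thinned to 2000 UMIs, the shares were 25.6% (21.4 to 30.2) and 34.2% (30.4 to 38.2), with intervals apart, and the means 2.30 and 2.93. At 4000 UMIs the libraries thus differed more in UMIs per Klra4-positive cell than in the share of positive cells. At 2000 UMIs this was not so, and the question is left undecided.

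Klrc1 gave shares of 43.1% and 51.3% with means of 2.08 and 2.90 UMIs, or 47.0% and 52.3% with means of 2.09 and 2.90 without the Hmga2 cells. Klra8 gave 36.7% and 45.5% with means of 3.79 and 4.43, or 40.1% and 46.4% with means of 3.76 and 4.43 without the Hmga2 cells. Klrg1 was seen in 16.7% (13.2 to 20.7) of WT cells and 11.7% (9.27 to 14.6) of those in the Siah2 -/- labelled library, with overlapping intervals, and in 18.2% and 12.2% without the Hmga2 cells. Its mean in positive cells was near the floor of 1 UMI, so it is not compared. Unthinned, 32.5% and 19.1% of NK cells had a Klrg1 UMI.

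Most NK cells carried some Ly49 member. At least 1 of the 4 was seen in 75.6% (71.1 to 79.7) of WT NK cells and 79.0% (75.5 to 82.2) of those in the Siah2 -/- labelled library, and in 79.6% and 80.2% without the Hmga2 cells. By number, 24.4% of WT cells had none, 30.0% had 1, 25.6% had 2, 16.5% had 3 and 3.45% had all 4. In the Siah2 -/- labelled library the shares were 21.0%, 24.7%, 26.0%, 23.8% and 4.53%. The intervals of the shares with 3 overlapped (13.0 to 20.5 in WT and 20.5 to 27.5 in the other), as did those without the Hmga2 cells, where the shares were 18.2% and 24.1%, and cells of 1 library are not replicates.

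**Figure D3:**
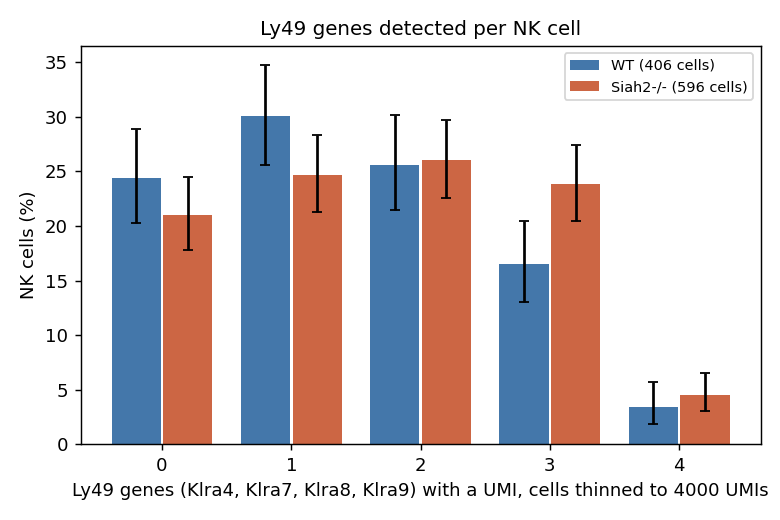
Share of NK cells, in percent, by how many of the 4 Ly49 members were seen after thinning to 4000 UMIs, for WT and the Siah2 -/- labelled library, with exact binomial 95% intervals. Cells with 3 members made up 16.5% in WT and 23.8% in the other library.

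Pairs of members were unevenly combined within cells. The values here are without the Hmga2 cells and after thinning, and the cells of a library are not replicates. Among WT NK cells with Klra4, 54.3% (45.3 to 63.2) also had Klra8, against 32.3% (26.4 to 38.7) of those without Klra4. In the Siah2 -/- labelled library the shares were 62.9% (56.2 to 69.3) and 36.1% (31.1 to 41.3). Klra8 was thus more frequent among cells with Klra4 than among the others, by shares whose intervals did not overlap in either library.

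Of the pairs of an activating and an inhibitory gene, none had intervals apart in both libraries whichever gene was taken first. Klra7 was in 64.6% (55.6 to 72.8) of WT cells with Klra4 and 48.9% (42.4 to 55.5) of those without, and in 69.2% (62.7 to 75.2) and 47.0% (41.8 to 52.4) in the other, while Klra4 by Klra7 overlapped in WT, at 41.6% (34.7 to 48.8) and 27.3% (20.6 to 34.7). Klra8 was in 46.7% (39.6 to 53.9) of WT cells with Klra7 and 32.1% (25.1 to 39.8) of those without it, which overlapped, and in 58.1% (52.5 to 63.6) and 31.6% (26.0 to 37.7) in the Siah2 -/- labelled library. Klra9 by Klra8 was at 33.8% (26.2 to 42.1) and 19.4% (14.3 to 25.2) in WT, and at 34.5% (28.8 to 40.5) and 24.3% (19.6 to 29.4) in the other, where the intervals overlapped. Klra9 by Klra4 overlapped in both, at 30.7% (22.8 to 39.5) and 22.1% (17.0 to 28.0) in WT and at 31.7% (25.6 to 38.2) and 27.3% (22.8 to 32.3) in the other. For the inhibitory pair the shares were closer. Klra9 was seen in 23.4% of WT cells with Klra7 and 27.3% of those without it, and in 29.1% and 28.9% in the other library. Klrc1 was set against Ly49 genes. Klra8 was in 29.4% (22.7 to 36.9) of WT cells with Klrc1 and 49.5% (42.2 to 56.8) of those without, and in 32.6% (27.3 to 38.2) and 61.5% (55.4 to 67.2) in the Siah2 -/- labelled library. Klra7 was in 42.9% of cells with Klrc1 and 64.6% of those without in WT, and in 42.9% and 69.5% in the other. NK cells with NKG2A thus carried these Ly49 genes less often, by shares whose intervals did not overlap in either library.

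The levels also varied with other features of NK cells. Cells with a UMI of the proliferation gene Mki67 (52 and 37 cells) had Klra7 at 262 and 304 CPM, against 546 and 727 in those without. Klra8 was at 153 CPM in WT cells with Mki67 and 296 without, and at 332 and 448 in the Siah2 -/- labelled library. By the integrin Itga1, seen in 88 and 85 cells, Klra7 gave opposite directions. It was at 600.2 CPM in WT and 516 in the Siah2 -/- labelled library among cells with Itga1 (log2 ratio −0.22, −0.39 to −0.05) and at 467 and 722 among cells without (0.63, 0.54 to 0.71). A cell with more UMIs is more likely to show any of these genes, and depth was not matched between the sides of these splits.

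In CD8 T cells 8 members were higher in the Siah2 -/- labelled library and 2 were lower, where 41.9% of all genes had a ratio above 0. The median log2 ratio of the members was 0.33, with −0.08 for all genes, and 1 member, Klrb1c, passed a log2 ratio of 1 in size, where 8.47% of genes did (4.16% higher and 4.31% lower). Klrb1c was at 18.5 CPM (97 UMIs) in WT and 39.0 (338 UMIs) in the Siah2 -/- labelled library, a log2 ratio of 1.08 (0.75 to 1.42). Over the alternatives it ranged from 0.60, over all barcodes with at least 1000 UMIs, to 1.22 under stricter gates, and was 0.64 under looser gates and 0.99 at the lowest UMI count of the WT cells, so it did not pass the limit of 1 in every one. Klrc1 had 0.65 (0.57 to 0.72), Klra7 0.45 (0.28 to 0.63), Klrk1 0.31 (0.24 to 0.37) and Klrd1 0.30 (0.25 to 0.35). Klra7 had 0.00 when the lowest UMI count of the WT cells was asked of both libraries. Both subunits of the NKG2A and CD94 receptor were higher in that library's NK and CD8 T cells.

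Lower in CD8 T cells were Klrg1, with 154 and 148 UMIs (log2 ratio −0.78, −1.12 to −0.45), and Klre1, with 889 and 1296 UMIs (−0.18, −0.30 to −0.06). Klra4 and Klra8 had 20 and 17 WT UMIs there, and their intervals held 0. Klra9 had 0.68 (0.10 to 1.29) on 34 and 90 UMIs, and −0.27 when the lowest UMI count of the WT cells was asked of both libraries. Thinned, Klrc1 was seen in 67.9% of WT CD8 T cells and 78.6% of those in the Siah2 -/- labelled library, against 0.62% and 3.61% of myeloid cells.

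The other T cells, those with CD3 UMIs and at most 1 Cd8a or Cd8b1 UMI, were a mixed gate whose makeup differed between libraries. Foxp3, the defining factor of regulatory T cells, was seen in 37.2% of the 129 WT cells and 9.91% of the 565 cells of the Siah2 -/- labelled library, and Cd4 in 32.6% and 56.3%. Fewer cells of a kind and less RNA per cell cannot be told apart in a summed level, so the member ratios in this gate stand beside those shares. By size, 5 members passed a log2 ratio of 1, where 18.0% of all genes did. Of these 4 were higher and 1 was lower, where 7.18% and 10.8% of all genes were.

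Klrc1 and Klrg1 were the extremes. Klrc1 was at 101 CPM (164 UMIs) in WT and 417 (1712 UMIs) in the Siah2 -/- labelled library, a log2 ratio of 2.04 (1.81 to 2.28). Klrg1 was at 181 CPM (292 UMIs) and 45.6 (187 UMIs), a ratio of −1.99 (−2.26 to −1.72). Klrk1 had 1.30 (1.13 to 1.48), Klrd1 1.01 (0.87 to 1.14) and Klra7 0.89 (0.71 to 1.07). Over the alternatives Klrc1 ranged from 1.35 to 2.16, Klrk1 from 0.59 to 2.12, Klrd1 from 0.54 to 1.11, Klra7 from 0.41 to 1.00 and Klrg1 from −2.59 to −1.04, so that Klrk1 and Klrd1 did not pass a log2 ratio of 1 in all of them. For example, without cells holding a fibroblast list UMI Klrk1 and Klrd1 had 0.89 and 0.54. Klra8 had 2 WT UMIs against 32, a ratio of 2.66 with an interval of 0.68 to 5.76, and −0.0083 under looser gates. Cells with an Hmga2 UMI held 30.0% of the WT UMIs of this gate and 9.23% of the others, and without them Klrc1 had 1.73 and Klrg1 −2.42. Klra4, on 33 and 49 UMIs, had −0.77 with all cells and 2.09 without them, so no direction is given for it.

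Split by Foxp3, Klrg1 was found mainly in the cells with a Foxp3 UMI. It stood there at 482 CPM (426 to 543) in the 48 WT cells and 360.0 (306 to 421) in the 56 cells of the Siah2 -/- labelled library, a log2 ratio of −0.42 (−0.71 to −0.13). In cells without Foxp3 it was at 22.6 and 8.71 CPM (log2 ratio −1.38, −2.19 to −0.55). The ratio of −1.99 in the whole gate was thus larger in size than that within either side of the split. Klrc1 was low with Foxp3, at 23.4 and 48.8 CPM, and without it was at 143 and 460.4 (log2 ratio 1.69, 1.45 to 1.94).

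A split by Cd4, added after the values were seen, separated the Ly49 gene from NKG2A. Klra7 was at 8.47 and 13.2 CPM in cells with a Cd4 UMI and at 266 and 745 in cells without. Klrc1 was at 69.9 CPM in the 42 WT cells with Cd4 and 502 in the 318 cells of the Siah2 -/- labelled library (log2 ratio 2.84, 2.34 to 3.39), and at 115 and 320.0 in cells without. Klrd1 was at 78.4 and 568 CPM in cells with Cd4. These cells differed in makeup, as 61.9% (45.6 to 76.4) of them in WT and 13.5% (9.96 to 17.8) in the other library also had a Foxp3 UMI, and Klrg1 was at 282 and 65.1 CPM. In the 16 and 275 cells with Cd4 and no Foxp3 UMI, also set apart after the values were seen, Klrc1 was at 169 CPM (28 UMIs) and 579 (1089 UMIs), a log2 ratio of 1.77 (1.23 to 2.37), and Klrd1 had 1.72 (1.22 to 2.26). In T cells with Cd4 of the Siah2 -/- labelled library Klrc1 was thus above its level in NK cells (355 CPM), and Klrd1 was below its own (1505 CPM).

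**Figure D4:**
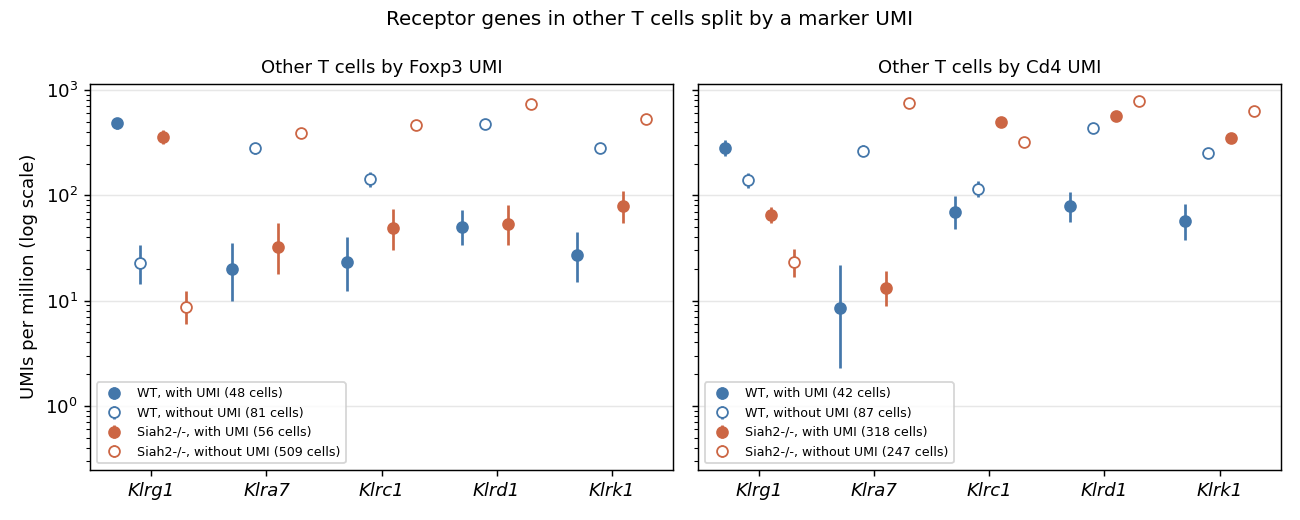
Levels of members in other T cells with and without a Foxp3 UMI and with and without a Cd4 UMI, in CPM on a log axis, for both libraries with Poisson 95% intervals. Klrg1 stood at 482 and 360.0 in cells with Foxp3, and Klra7 at 8.47 and 13.2 in cells with Cd4.

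Myeloid cells gave low levels for 8 members and higher ones for Klrk1 and Klrd1. Klrk1 was at 119.8 CPM in WT and 153 in the Siah2 -/- labelled library, with a UMI in 54.2% and 59.8% of cells, and Klrd1 at 37.2 and 54.6 CPM. The other 8 members were between 0.74 and 10.2 CPM. Several of these were higher in the Siah2 -/- labelled library, as with Klrc1 (1.80 and 8.68 CPM) and Klra7 (1.92 and 8.30). Beside them, Gzma, a granule protease of NK and T cells, was at 19.1 CPM in WT myeloid cells and 98.9 in those of the other library, with a UMI in 14.8% and 43.2% of cells, and the part of free RNA in the low myeloid levels was not tested.

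Within the myeloid gate the pair differed. In cells with dendritic cell genes (110 and 105 cells) Klrd1 was at 258 and 256 CPM, and in cells with macrophage genes (1972 and 2233) at 21.3 and 44.7. Klrk1 was at 242 and 367 CPM in the former and at 112 and 143 in the latter. Klra7 had 0 UMIs in WT cells with dendritic cell genes and 7 in the other library. Among Ly49 genes that are not members, Klra2 was at 201 and 241 CPM here and Klra17 at 29.1 and 11.8, while Klra1, Klra3, Klra5 and Klra6 were between 0.164 and 2.44 CPM.

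**Figure D5:**
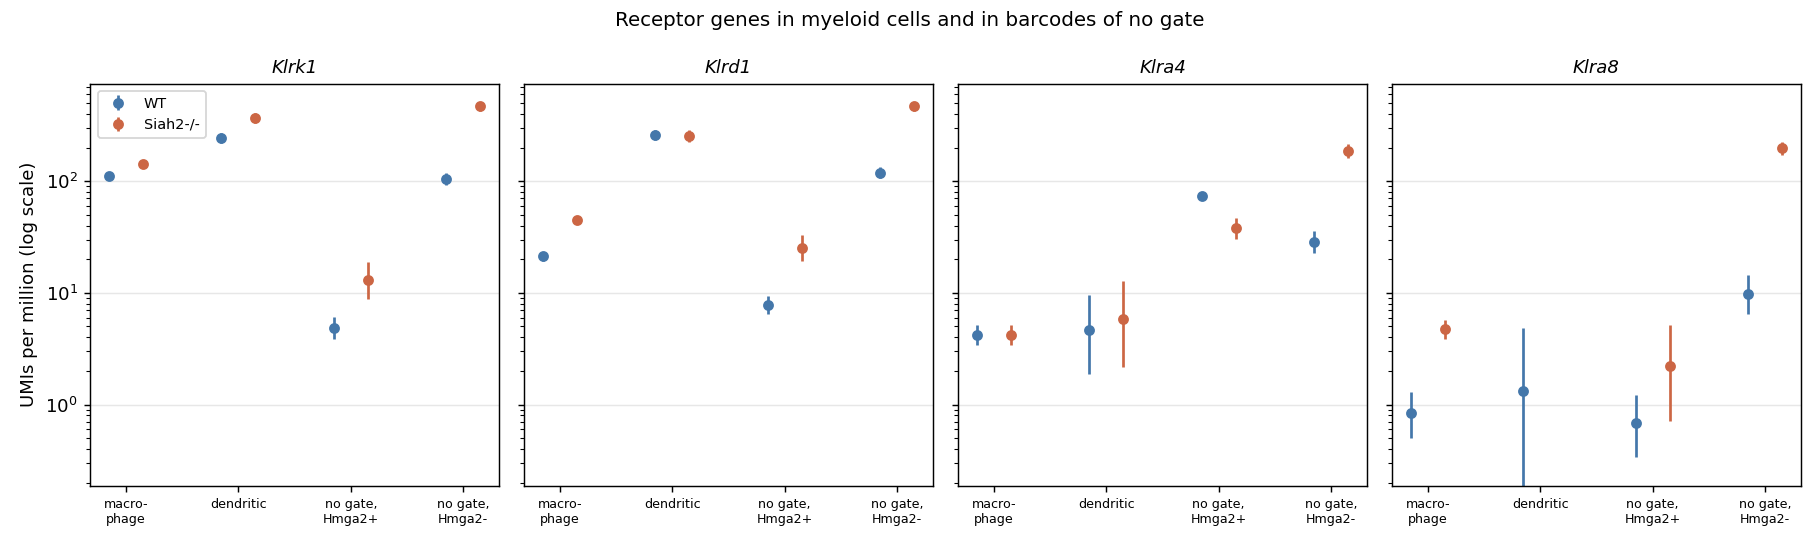
Levels of members in myeloid cells with dendritic cell or macrophage genes and in barcodes that fell in no gate, in CPM on a log axis, by library with Poisson 95% intervals (a level of 0 is not drawn). Klrd1 stood at 258 and 256 with dendritic cell genes, and Klra4 at 73.9 and 37.7 in ungated barcodes with an Hmga2 UMI.

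Klra4 was also counted in barcodes outside the gates, whose Ptprc (CD45) level was 5.02 and 10.1 CPM where an Hmga2 UMI was present. In barcodes of no gate with an Hmga2 UMI it was at 73.9 CPM (69.8 to 78.2) in WT, in 300 of 610 barcodes, and at 37.7 (30.2 to 46.6) in the Siah2 -/- labelled library, in 38 of 91, where 1 barcode held 34.9% of the UMIs. Klra7 was at 1.80 and 5.26 CPM and Klra8 at 0.68 and 2.19 in the same barcodes, so Klra4 stood apart from the other Ly49 members there. In the NK gate Klra4 was at 91.5 CPM in WT cells with an Hmga2 UMI and at 287 in those without.

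Barcodes of at most 100 UMIs, taken as droplets without a cell, measure free RNA and held every member. Klrd1 was at 367 CPM in WT and 488 in the Siah2 -/- labelled library, Klrk1 at 245 and 315, Klrc1 at 112 and 167, and Klra7 at 103 and 154. Klra4 was at 78.3 and 54.2 CPM and Klrg1 at 47.1 and 27.9, the members that were lower in that library's droplets.

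Genes that work with the members were read from 6 lists in NK cells. Of 19 other lectin-like receptors 15 had enough UMIs, with a median log2 ratio of 0.41 (−0.04 for all genes), and 8 intervals lay above 0 and 1 below. Without the Hmga2 cells the median was 0.33 (0.05 for all genes), with 7 above and 2 below, and under stricter gates it was 0.03. These counts and those of the lists that follow stand beside the 14.8% above and 19.3% below of all genes, or 14.8% and 9.52% without the Hmga2 cells. Cd69 had 0.90 and Klrb1b 0.89, Klrc2, an activating partner of Klrd1, 0.80, and Klra5 −0.99. Klri2, a partner of Klre1, was at 133 and 172 CPM, while Klri1 had 9 and 12 UMIs.

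All 19 signalling partners were measured, with a median of 0.20, 11 intervals above 0 and 1 below, and with 5 above and 1 below among 18 genes without the Hmga2 cells. Cd247 had a log2 ratio of 0.60, Inpp5d (a phosphatase recruited by inhibitory receptors) 0.59 and Sh2d1a 0.47, while Ptpn6, the phosphatase SHP-1, had −0.29, or −0.55 without the Hmga2 cells. Tyrobp was at 2784 and 3191 CPM and Hcst at 345 and 459. The median of this list was 0.05 without the Hmga2 cells, and so was that of all genes.

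Of 16 ligands 7 could be read, 5 with intervals above 0 and 1 below, and 6 without the Hmga2 cells, 5 of them above. H2-T23, which encodes Qa-1, the ligand of the Klrc1 and Klrd1 pair, was at 136 and 208 CPM in NK cells (log2 ratio 0.62, 0.48 to 0.76), H2-D1 had 0.51 and H2-K1 0.44. The cadherin Cdh2 had 40 and 5 UMIs (−3.21) and too few UMIs for a value without the Hmga2 cells.

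Among 15 other NK receptors, 11 intervals were above 0 and 0 below, among them that of Ncr1, which defines the gate (0.20, or 0.00 without the Hmga2 cells), with 5 genes past a log2 ratio of 1, and without the Hmga2 cells 8 were above and 3 genes passed, where 3.91% of all genes were past 1 on the higher side, or 4.40% without those cells. The list's median, 0.45, was 0.20 under stricter gates. Havcr2 had 1.43 on 8 and 25 UMIs, Tigit 1.33 on 11 and 32 UMIs, and the cytokine receptor Il12rb2 1.28. Of 15 maturation and tissue-residence genes, 10 intervals were above 0 and 0 below, or 10 and 1 without the Hmga2 cells. Klf2, a factor of circulating lymphocytes, was at 20.6 and 108 CPM (2.39, 2.08 to 2.71), Il7r had 4 and 34 UMIs (2.88) and Cxcr6 1.82.

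The 12 effector genes gave both directions, with 9 intervals above 0 and 3 below, or 8 and 4 without the Hmga2 cells, where Gzmb had −0.04 in place of 0.18. Ccl5 had a log2 ratio of 1.41, Ifng 1.11 and Tnf 0.94, while the granzymes Gzmf and Gzmc had −0.77 and −0.65 and the chemokine Xcl1 −0.51. Gzmc remained abundant in both, at 7197 and 4588 CPM.

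The genes most like each member across 4 gates in 2 libraries were found by Pearson's r of log2(CPM + 1). With only 8 values, which share libraries and depth, r describes a gate pattern and no more. Klrb1c and Klra9 both had Klra3, the Ly49C gene, as the nearest (0.998 and 0.995), and Clnk, an adaptor, next (0.987 and 0.994). Klra8 was nearest to Khdc1c (0.991) and Kcnk10 (0.982), Klra4 to Bfsp2 (0.990) and Car2 (0.988), and Klra7 to Pdlim1 (0.990) and Txk (0.984). Klrc1 was nearest to Ms4a4b (0.994) and Fasl (0.991), and Klrd1 to Gm14029 and Sh2d1a (0.992 each). Klrk1 was nearest to Serpinb6b (0.993) and Pigs (0.989), Klre1 to Abca2 (0.989) and Cst7 (0.988), and Klrg1 to D3Ertd751e (0.990) and Tgif2 (0.982).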

How the data were processed

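Single-cell RNA sequencing was deposited for 1 WT and 1 Siah2 -/- library. Per the authors, UMI counts were made with Cell Ranger (version not given in the sources used here) on mm10/GRCm38 after bcl2fastq, and cells in the top or bottom 2% of genes detected or with over 10% mitochondrial transcripts were removed. The deposited counts were used as they stand. The deposited normalized table holds natural log values of UMIs scaled to 10000 per cell by the authors, and only its cell names were used. No doublet caller was run here. The filter on genes detected was the authors' step against doublets, and barcodes with markers of several lineages were set aside. 

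NK cells had at least 1 Ncr1 UMI, at most 2 CD3 UMIs and at most 2 UMIs of 10 myeloid genes. T cells had at least 3 CD3 UMIs, no Ncr1 and at most 2 myeloid UMIs, and CD8 T cells at least 2 UMIs of Cd8a and Cd8b1. Myeloid cells had at least 3 myeloid UMIs. Counts were summed per gate and library, with exact Poisson, conditional binomial or Clopper-Pearson 95% intervals, which cover counting error only. Shares were taken after thinning each cell to 4000 UMIs. All-gene summaries used genes with at least 20 UMIs. No test between genotypes was made, as each had 1 library. Columns of other samples numbered 0 in the tables.

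All members are named, and from each list up to 3 genes per direction with the largest ratio whose interval left out 0. For each member the 2 genes of highest Pearson r with at least 50 UMIs are named. Further genes were named after their values were seen: Klri1, Klri2, Hcst, Tyrobp, Fcer1g, Lyz2, H2-Aa, Klra1, Klra2, Klra3, Klra5, Klra6, Klra17, Gzmb, Ptprc and Hmga2. The members and lists were chosen with earlier results of these data known. The ratio script was tested on simulated data. Python 3.11.15, numpy 2.4.6, scipy 1.17.1, pandas 2.3.3 and matplotlib 3.10.9 were used.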

Additional observations from a re-analysis of the deposited data

Results flagged for a closer look

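Klre1 was flagged because its direction differed between cell types. Its log2 ratio of the Siah2 -/- labelled library to WT was 0.30 in NK cells and −0.18 in CD8 T cells, with 1 library per genotype in each, and the difference was not tested. Without the cells that had an Hmga2 UMI the NK value was 0.08.

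Klra4 was flagged because it was counted outside the compared cells. In barcodes of no gate with an Hmga2 UMI its level was 73.9 CPM in WT and 37.7 CPM in the Siah2 -/- labelled library.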

How the results depend on the processing

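Of 555 alternative values, 375 stayed near the main value, 174 moved further and 6 turned direction from a value whose interval left out 0. Near meant inside the counting interval of the main value for ratios and shares. Counts of genes and list medians have no such interval, and a fixed limit was used for them. Log2 ratios whose interval held 0 turned sign in another 13, over 4 results (Klra4 in CD8 T and in myeloid cells, Klra9 and Klrb1c in other T cells), and are counted under the first pair. The 10 members kept their direction in NK cells in 100 of 100 alternatives. The log2 ratio of the Ly49 sum in NK cells, 0.62, was 0.55 under stricter and 0.68 under looser gates, 0.46 with the lowest UMI count of the WT cells asked of both libraries, 0.38 over all barcodes with at least 1000 UMIs, 0.41 without cells holding an Hmga2 UMI and 0.36 without cells holding a fibroblast list UMI, the last pair chosen after seeing the data. For the other members in NK cells, 0.43, the same settings gave 0.32, 0.49, 0.34, 0.29, 0.21 and 0.21, with 0.40 without the 5% of cells with the most UMIs and 0.47 with median-of-ratios size factors. In CD8 T cells their 0.34 was 0.39 under stricter gates, 0.31 at the WT lowest count, 0.21 over barcodes with at least 1000 UMIs, 0.40 without the deepest 5% and 0.42 with median-of-ratios size factors. Klra9 in CD8 T cells was −0.27 at the WT lowest count. In other T cells Klra4, −0.77, was 1.90 under stricter gates, 0.066 at the WT lowest count, 0.88 without the deepest 5% and 2.09 without Hmga2 cells, and Klra8, 2.66, was −0.0083 under looser gates. The share of NK cells with a Ly49 member was 67.2% in WT and 74.8% in the Siah2 -/- labelled library at 2000 UMIs. With no thinning it was 82.0% in WT and 82.2% in the Siah2 -/- labelled library. With at least 50 UMIs, genes past a log2 ratio of 1 in size numbered 632 in NK cells (243 higher, 389 lower) in place of 1158 (414, 744), 497 in CD8 T cells (251, 246) in place of 886 (435, 451), and 1063 in other T cells, 590 of them lower, in place of 1769 and 1062. Where a result turned or moved, the cause was not tested.

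No paired analysis was possible because each genotype had 1 library, and leaving out a library would leave no value. Intervals cover counting error only, and small counts, as for Klra4 and Klra8 in T cells, limit those ratios.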

Other observations

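Barcodes with an Ncr1 UMI, at least 3 CD3 UMIs and at most 2 myeloid UMIs entered no comparison, and numbered 118 in WT and 274 in the Siah2 -/- labelled library. Klra7 was at 526 and 776 CPM there, Klrc1 at 291 and 498, Klra4 at 147 and 126, and Klra8 at 104 and 98.0. Klra4 and Klra8 were thus below their NK levels and Klra7 was not.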
